A study of Mus musculus with 22 samples.

Results

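The genes described here were 41 listed genes of DNA replication, and 40 of them were measured, each by 1 probe set, among 19505 genes named on the arrays. Mcm7, a subunit of the replicative helicase, was on the list and was not analysed here. Members were taken by gene symbol, and no measured value entered the choice. Transcriptomes had been recorded on 22 Clariom S arrays from BMDM, which are macrophages that C57/bl6 mouse bone marrow gives rise to in culture, here in medium conditioned by L929 fibroblasts. The purpose was to ask whether β-hydroxy-β-methylbutyrate (HMB) changes macrophage polarization. HMB is a product of leucine breakdown. The Ctrl group held 6 arrays of untreated M0 macrophages, and the HMB group held 6 arrays of M0 macrophages given 1 mM HMB. The LPS group held 5 arrays of macrophages given lipopolysaccharide (10 ng/ml), a component of the bacterial outer membrane that drives M1-like polarization. The HMB+LPS group held 5 arrays of cells given both, and treatment lasted 48 h. The labels number the arrays 1 to 6 in Ctrl and HMB and 2 to 6 in both LPS groups. The sources used here do not say what a replicate number stands for, nor whether replicates came from different mice or dishes. P-values therefore cover the variation among these arrays alone, and this variation may be technical. Values are log2 levels, so a difference of 1 is a doubling, and levels are compared only within a gene, since probe sets differ in brightness.

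A cell copies its genome a single time per division. The origin recognition complex, Cdc6 and Cdt1 load the MCM helicase onto DNA before S phase, and Cdc45, the GINS complex and Mcm10 then turn it into a moving fork at which primase, polymerases, the Pcna clamp and its loader work. Genes for these proteins are transcribed in late G1 and S phase under E2F transcription factors, and are low in resting cells. Marrow precursors divide on their way to macrophages, and mature macrophages divide little, so the level of these genes in a culture reflects both how many cells divide and how much RNA each makes.

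Promoters were searched for E2F words, since E2F factors are the known shared regulators of these genes. The words were TTTCCCGC, TTTCGCGC, TTTGCCGC and TTTGGCGC, read on both strands from 250 bases before to 50 bases after the start site in RefSeq's GRCm38.p6 annotation. Promoters were given for 33 of the 40 measured members (38 promoters, since some genes have more than 1). A word was present in 13 of these 38 promoters (34.2%), and in 744 of all 32851 promoters (2.26%). The 160 bases before the start site are printed for 5 members, with matched words in capitals, because they span what was found. Mcm5 varied most between arrays and has 2 words, on opposite strands and overlapping, that begin at −153 and −149 from the start. Mcm6 has the most, 3 words, at −110, −106 and −47, and the first of these overlaps the next on the other strand. The loading factors Cdc6 and Orc1 have 1 each, at −138 and −27. Mybl2, which differed almost as much as Mcm5, has none of these 4 words in its window.
Mcm5, chr8:75109349-75109508, plus strand: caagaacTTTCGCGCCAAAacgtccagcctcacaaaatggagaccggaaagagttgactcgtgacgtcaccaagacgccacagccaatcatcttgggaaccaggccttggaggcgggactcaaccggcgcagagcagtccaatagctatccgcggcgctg
Mcm6, chr1:128359706-128359865, minus strand: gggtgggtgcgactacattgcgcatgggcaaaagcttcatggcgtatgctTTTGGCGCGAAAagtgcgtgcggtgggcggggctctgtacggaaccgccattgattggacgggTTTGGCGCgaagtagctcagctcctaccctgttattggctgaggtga
Cdc6, chr11:98907991-98908150, plus strand: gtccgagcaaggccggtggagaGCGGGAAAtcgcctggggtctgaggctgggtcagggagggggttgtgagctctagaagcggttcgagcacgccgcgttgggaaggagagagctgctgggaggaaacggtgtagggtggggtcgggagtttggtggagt
Orc1, chr4:108579294-108579453, plus strand: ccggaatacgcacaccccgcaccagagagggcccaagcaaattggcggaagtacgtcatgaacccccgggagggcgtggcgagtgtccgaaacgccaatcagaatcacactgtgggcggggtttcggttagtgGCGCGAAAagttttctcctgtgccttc
Mybl2, chr2:163054475-163054634, plus strand: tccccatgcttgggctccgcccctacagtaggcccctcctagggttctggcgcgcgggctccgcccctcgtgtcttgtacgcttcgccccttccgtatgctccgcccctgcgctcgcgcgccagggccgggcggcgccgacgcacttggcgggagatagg
A match describes the letters only, and forms of the site that differ from these 4 words at any base were not searched. Other members with a word were Cdt1, Mcm3, Gins3, Pola1, Pold1, Pole2, Rfc3, Lig1 and Uhrf1.

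The arrays without LPS fell into low and high replicate numbers, and a few arrays with LPS did not lie with their number. Each array was placed along the difference between numbers 5 and 6 and numbers 1 to 4 of Ctrl and HMB. Arrays with LPS were placed using 3144 probe sets. For each Ctrl or HMB array, the probe sets and the reference were chosen again without the arrays of its own number. Every replication and cell cycle gene described here was left out. So were probe sets that responded to LPS when groups were compared over all arrays. On the scale of this placement, 0 stands for numbers 1 to 4 and 1 for numbers 5 and 6. The 8 arrays above 0.5 (Ctrl 5 and 6, HMB 5 and 6, LPS 3 and 6, HMB+LPS 5 and 6), at 0.79 to 0.97, are called set B, and the other 14, at −0.29 to 0.37, set A. These sets come from the data and are not groups of the study. LPS 3 thus lay with the high numbers and LPS 5 with the low ones. The response to LPS went with the sets. Nos2, the inducible nitric oxide synthase, was at 15.88 to 16.60 on the 6 set A arrays with LPS, at 5.64 and 5.74 on LPS 3 and LPS 6, and at 9.85 and 9.78 on HMB+LPS 5 and HMB+LPS 6. On the 12 arrays without LPS it lay at 3.45 to 5.75. The summed log2 level of 6 LPS response genes (Nos2, Il6, Il1b, Lcn2, Saa3 and Ccl5) was 99.4 to 104.1 on set A arrays with LPS. It was 62.4 to 75.0 on set B arrays with LPS. Without LPS it was 37.3 to 40.5 in numbers 1 to 4 and 41.6 to 49.1 in numbers 5 and 6, so set B arrays with LPS were raised too. LPS minus Ctrl called 414 probe sets over all arrays and 3367 within set A. Probe sets that responded to LPS only within a set can thus remain among the 3144. The position of an array with LPS and the strength of its LPS response therefore cannot be told apart. The mean of positive minus negative control probe sets was 3.65 to 5.26 in set A and 4.70 to 5.08 in set B, and all 6 arrays under 4 were in set A. All 9 measured macrophage markers, such as Adgre1 and Csf1r, had medians above that of the tested probe sets both with and without LPS.

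Replication genes differed between replicate numbers of macrophages that had no LPS. Over the 12 Ctrl and HMB arrays, 37 of the 40 members differed between numbers by limma's F test with HMB as a term, where 16.9% of all 22206 probe sets did. All 37 were higher in numbers 5 and 6 than in numbers 1 to 4. In 37 members the 4 arrays of numbers 5 and 6 lay above all 8 arrays of numbers 1 to 4, where 10.1% of all probe sets did, and in 0 members they lay below all of them (6.08% of all). This grouping of the numbers was chosen from the data, so the differences that follow are descriptions, and the F test, which uses only the labels, is the test. An adjusted p printed beside a difference of numbers 5 and 6 from 1 to 4, here and below, is that of this F test. It covers any difference among the numbers and does not measure the printed one. The median member was 2.25 log2 units higher in numbers 5 and 6, and members ranged from −0.16 for Rfc2 to 4.83 for Mcm5. These are differences of measured values, and low ones are near background: on the 8 arrays of numbers 1 to 4, 27 members never exceeded the array's 95th percentile of negative control probe sets, Mcm5 among them, so no fold is given. The median over all probe sets was −0.04. Cdt1 (adjusted p = 0.113), Pcna (adjusted p = 0.117) and Rfc2 (adjusted p = 0.09) did not pass, and the arrays overlapped in Cdt1, Rfc2 and the polymerase subunit Pold1. Number 4 lay between. Its 2 arrays were above the 6 arrays of numbers 1 to 3 in 21 members (7.38% of all probe sets) and below them in 2, Cdt1 and Rfc2 (7.31% of all). In RNA from a whole culture, fewer dividing cells and less RNA per dividing cell cannot be told apart.

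**Figure D1:**
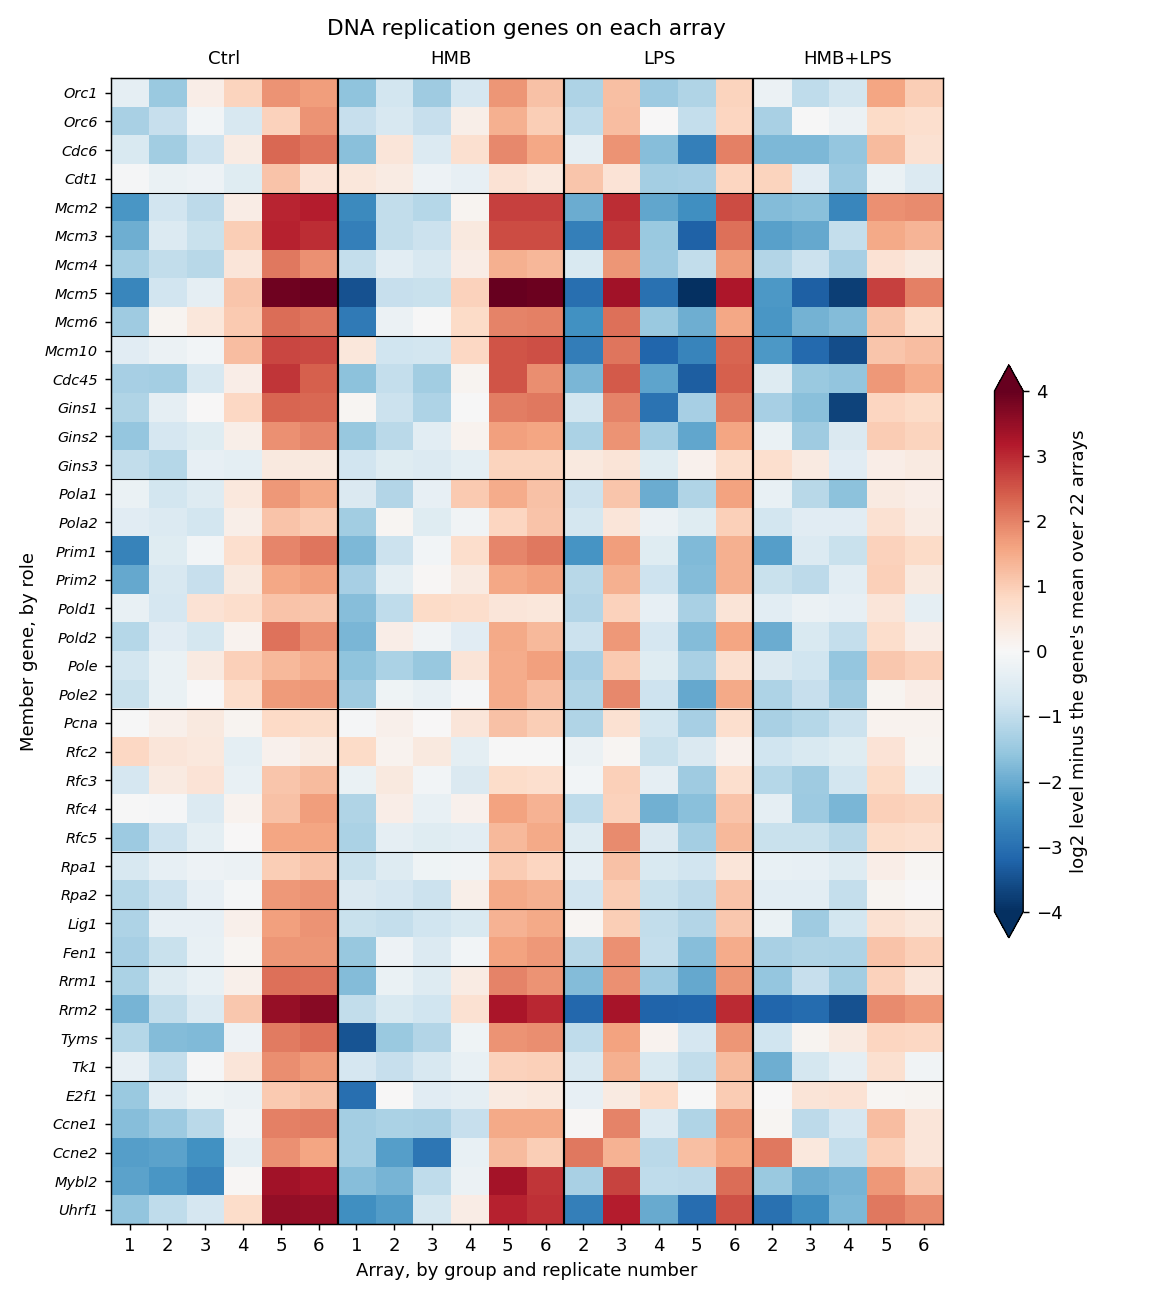
Heat map of 40 replication genes (rows, by role) on 22 arrays (columns, by group and replicate number), where colour is the log2 level minus the gene's mean over all arrays. Numbers 5 and 6 of Ctrl and HMB, LPS 3 and 6 and HMB+LPS 5 and 6 are red over nearly all rows, LPS 5 is blue over most, and colours past 4 either way are cut at the ends of the scale.

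**Figure D2:**
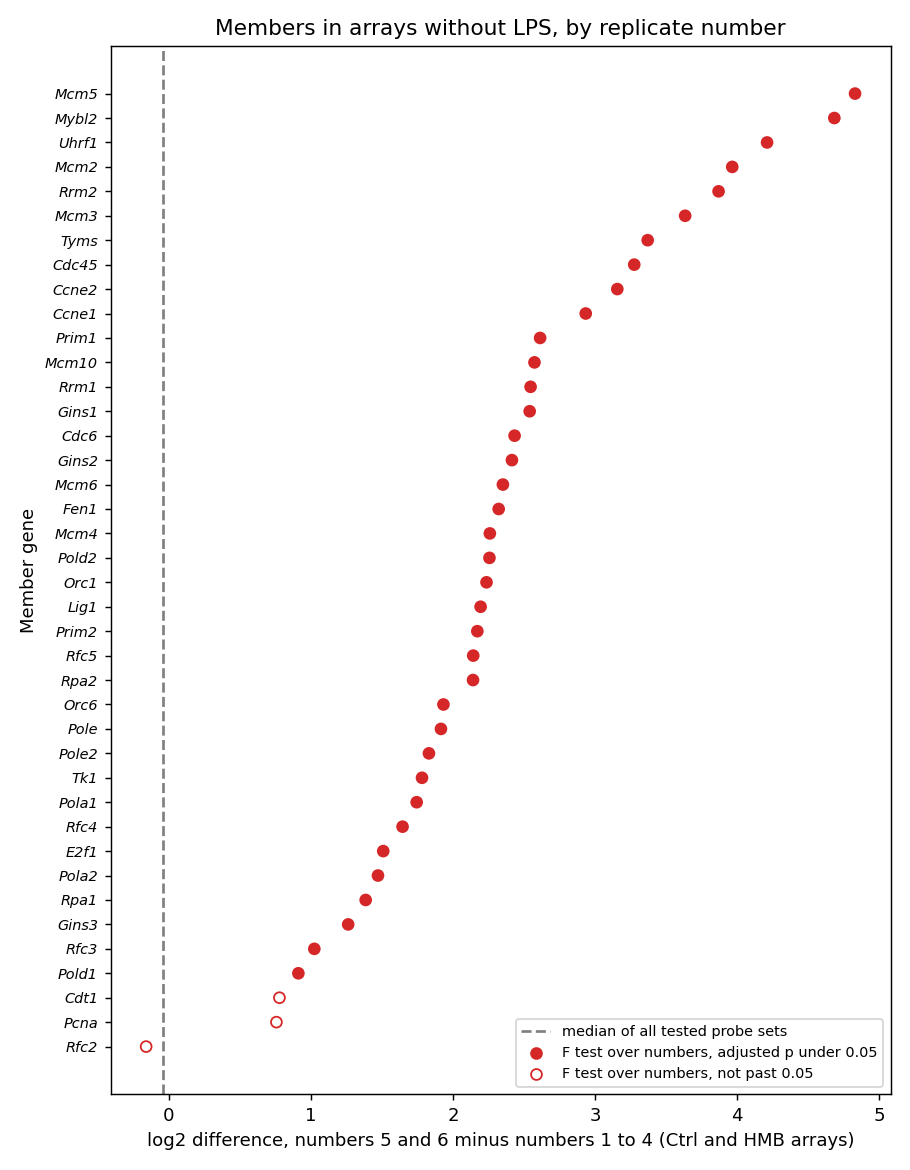
Difference of each member between replicate numbers 5 and 6 (4 arrays) and 1 to 4 (8 arrays) of Ctrl and HMB, in log2 units, with filled points for members past 0.05 in the F test over numbers. Members run from −0.16 for Rfc2 to 4.83 for Mcm5, and the dashed line is the median of all probe sets, −0.04.

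Among the 4 genes that load the helicase at origins, Orc1, Orc6 and Cdc6 passed the F test and Cdt1 did not. Cdc6, an ATPase that brings the helicase to the origin recognition complex, was at 6.84, 6.05, 6.61, 7.75, 9.75 and 9.59 on Ctrl 1 to 6 and at 5.75, 7.92, 6.88, 8.07, 9.36 and 8.97 on HMB 1 to 6. With LPS it was at 7.09, 9.22, 5.75, 4.72 and 9.45 on LPS 2 to 6, and with both at 5.63, 5.64, 5.90, 8.69 and 8.04 on HMB+LPS 2 to 6. Numbers 5 and 6 were above numbers 1 to 4 without overlap in M0 cells (difference 2.43). The F test over numbers gave an adjusted p = 0.0113, and LPS 5 was the lowest of all 22 arrays. Cdt1, the partner of Cdc6 that is destroyed once S phase starts, had the narrowest range of these genes. It was at 12.16, 11.94, 12.01, 11.73, 13.36 and 12.77 on Ctrl 1 to 6, at 12.66, 12.52, 12.01, 11.87, 12.79 and 12.64 on HMB 1 to 6, at 13.31, 12.75, 10.84, 10.88 and 13.07 on LPS 2 to 6 and at 13.10, 11.74, 10.77, 11.94 and 11.67 on HMB+LPS 2 to 6. LPS 2 and HMB+LPS 2 were as high as Ctrl 5 within 0.26 units, and LPS 4, LPS 5 and HMB+LPS 4 were the lowest, so the groups overlapped. Orc1 and Orc6, subunits of the origin recognition complex, were 2.24 and 1.93 higher in numbers 5 and 6 (adjusted p = 0.0146 and 0.0109).

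All 5 measured subunits of the MCM helicase ring passed, with differences of 2.26 to 4.83. Mcm5 had the widest range of all members, 8.85 log2 units over the 22 arrays. It was at 6.44, 8.29, 8.70, 10.15, 12.94 and 13.01 on Ctrl 1 to 6 and at 5.56, 8.12, 8.16, 9.97, 13.10 and 12.97 on HMB 1 to 6, so that each HMB array lay near the Ctrl array of its number and numbers 5 and 6 lay above the rest (adjusted p = 3.35e-05). LPS 2 to 6 gave 6.03, 12.40, 6.07, 4.24 and 12.28. HMB+LPS 2 to 6 gave 6.76, 5.78, 5.27, 11.78 and 11.07. In both LPS groups the set B arrays were above 11 and the set A arrays under 7, with nothing between. Mcm4 varied least of the ring, at 8.41, 8.79, 8.65, 10.23, 11.88 and 11.57 on Ctrl 1 to 6, 8.80, 9.34, 9.11, 10.06, 11.19 and 11.08 on HMB 1 to 6, 9.15, 11.54, 8.31, 8.77 and 11.45 on LPS 2 to 6 and 8.60, 8.89, 8.43, 10.33 and 10.15 on HMB+LPS 2 to 6. Its order of arrays was the same in kind, with HMB+LPS 5 and 6 at the level of Ctrl 4 and HMB 4 and below the other set B arrays. Mcm2 and Mcm3 were 3.97 and 3.63 higher in numbers 5 and 6 (adjusted p = 3.35e-05 and 5.8e-05), and Mcm6, the member with 3 E2F words, 2.35 (adjusted p = 0.00035).

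Mcm10, Cdc45 and the GINS subunits, which start the loaded helicase, all passed. Mcm10, needed to open the origin, was at 8.01, 8.25, 8.37, 9.70, 11.13 and 11.10 on Ctrl 1 to 6 and at 8.92, 7.68, 7.74, 9.30, 10.998 and 11.05 on HMB 1 to 6. On LPS 2 to 6 it was at 5.71, 10.62, 5.29, 5.84 and 10.81, and on HMB+LPS 2 to 6 at 6.17, 5.37, 4.93, 9.59 and 9.71. The 6 set A arrays with LPS were the lowest of all 22 and did not overlap the 8 set A arrays without LPS, whose lowest was 7.68 on HMB 2. Gins3 had the narrowest range of this role, at 8.39, 8.24, 9.06, 8.999, 9.77 and 9.76 on Ctrl 1 to 6, 8.62, 8.91, 8.84, 8.99, 10.27 and 10.26 on HMB 1 to 6, 9.76, 9.91, 8.90, 9.54 and 10.09 on LPS 2 to 6 and 10.05, 9.73, 8.93, 9.64 and 9.74 on HMB+LPS 2 to 6. LPS 2, LPS 5, HMB+LPS 2 and HMB+LPS 3 were all above the 8 arrays of numbers 1 to 4 without LPS, while in Mcm10 the same 4 arrays were below them. On these 4 arrays the mean of positive minus negative controls was under 4. Gins3 exceeded the array's 95th percentile of negative controls on 0 of the 6 set A arrays with LPS and 0 of the 8 without, so these levels lie near background. Cdc45, part of the active helicase, was 3.28 higher in numbers 5 and 6 (adjusted p = 0.00017), Gins1 2.54 and Gins2 2.41 (adjusted p = 0.0057 and 0.000223).

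The 8 genes of primase and the replicative polymerases all passed, with a median difference of 1.87. Prim1, the catalytic primase subunit that makes RNA primers, was at 7.10, 9.30, 9.69, 10.46, 11.73 and 11.91 on Ctrl 1 to 6, 7.98, 8.91, 9.68, 10.50, 11.75 and 11.88 on HMB 1 to 6, 7.42, 11.44, 9.30, 8.02 and 11.19 on LPS 2 to 6 and 7.59, 9.24, 8.89, 10.69 and 10.54 on HMB+LPS 2 to 6. Ctrl 1 and HMB 1 were below the other arrays without LPS, and numbers 5 and 6 were above all of them (difference 2.61, adjusted p = 0.000226). Pola2, the accessory subunit of polymerase α, varied least, at 10.55, 10.46, 10.27, 11.25, 12.15 and 12.02 on Ctrl 1 to 6, 9.61, 11.10, 10.52, 10.86, 11.86 and 12.16 on HMB 1 to 6, 10.32, 11.51, 10.78, 10.53 and 11.97 on LPS 2 to 6 and 10.28, 10.57, 10.55, 11.63 and 11.36 on HMB+LPS 2 to 6. The set B arrays of each group were again the highest of that group. Among the catalytic polymerase subunits, Pola1 was 1.74 higher in numbers 5 and 6, Pole 1.91 and Pold1 0.91 (adjusted p = 0.00202, 0.00797 and 0.0134). Prim2, Pold2 and Pole2 were 2.17, 2.26 and 1.83 higher (adjusted p = 0.000766, 0.00288 and 0.00106). Pold1 was the exception to the gap, since Ctrl 3 and 4 and HMB 3 and 4 (7.48 and 7.60, 7.66 and 7.60) were above HMB 5 and 6 (7.39 and 7.33).

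The sliding clamp and its loader moved least with the replicate number. Pcna, the clamp that tethers polymerases to DNA, was at 15.98, 16.21, 16.40, 16.10, 16.80 and 16.74 on Ctrl 1 to 6 and at 15.97, 16.19, 16.01, 16.47, 17.16 and 16.99 on HMB 1 to 6. Numbers 5 and 6 were above the rest by 0.76, and Pcna did not pass the F test over numbers. With LPS it split, at 14.81, 16.61, 15.25, 14.66 and 16.67 on LPS 2 to 6 and 14.70, 14.85, 15.14, 16.14 and 16.15 on HMB+LPS 2 to 6, and the 6 set A arrays with LPS lay under all 16 other arrays. Rfc2 to Rfc5 are small subunits of the loader that opens the clamp. Rfc4 had the widest range of them, at 9.55, 9.51, 9.003, 9.71, 10.73 and 11.23 on Ctrl 1 to 6, 8.36, 9.84, 9.28, 9.75, 11.16 and 10.95 on HMB 1 to 6, 8.54, 10.50, 7.63, 7.88 and 10.71 on LPS 2 to 6 and 9.21, 8.12, 7.74, 10.51 and 10.45 on HMB+LPS 2 to 6, with numbers 5 and 6 above the other arrays without LPS (adjusted p = 0.0132). Rfc2 ran against the rest. It was at 11.56, 11.22, 11.19, 10.37, 10.93 and 11.08 on Ctrl 1 to 6 and at 11.52, 10.88, 11.14, 10.36, 10.73 and 10.74 on HMB 1 to 6, so that Ctrl 1 and HMB 1 were the highest of all 22 arrays and number 4 the lowest without LPS. LPS 2 to 6 gave 10.51, 10.84, 9.86, 10.17 and 10.92, and HMB+LPS 2 to 6 gave 9.94, 10.13, 10.27, 11.29 and 10.87. Rfc5 and Rfc3 were 2.14 and 1.02 higher in numbers 5 and 6 (adjusted p = 0.000769 and 0.0284).

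Genes that protect single strands and join new ones passed, 4 of 4. Rpa2, the middle subunit of the protein that coats single-stranded DNA, was at 8.004, 8.32, 8.81, 9.08, 10.88 and 10.94 on Ctrl 1 to 6 and 8.57, 8.46, 8.28, 9.38, 10.66 and 10.55 on HMB 1 to 6. It was at 8.39, 10.16, 8.24, 8.08 and 10.29 on LPS 2 to 6 and 8.73, 8.71, 8.18, 9.25 and 9.15 on HMB+LPS 2 to 6. HMB+LPS 5 and 6 were lower than LPS 3 and 6 and than Ctrl and HMB 5 and 6, and close to Ctrl 4 and HMB 4. Rpa1, the large subunit, was 1.38 higher in numbers 5 and 6 (adjusted p = 0.0041), at 12.46 to 12.73 against 10.70 to 11.47, and was at 11.23, 12.77, 11.002, 10.84 and 12.08 on LPS 2 to 6 and 11.31, 11.27, 11.07, 11.88 and 11.69 on HMB+LPS 2 to 6. Fen1, the nuclease that trims the flaps of Okazaki fragments, was at 8.43 to 10.03 on the arrays of numbers 1 to 4 without LPS and at 11.55 to 11.71 on those of numbers 5 and 6 (adjusted p = 0.000548). With LPS it was at 8.82, 11.79, 8.98, 8.23 and 11.43 on LPS 2 to 6 and at 8.65, 8.74, 8.72, 11.07 and 10.89 on HMB+LPS 2 to 6, so the set B arrays stood more than 2 units above the set A arrays of their group. Lig1, which seals the fragments, was at 6.19 to 7.63 against 8.80 to 9.21 without LPS (adjusted p = 0.00121), at 7.51, 8.42, 6.43, 6.26 and 8.50 on LPS 2 to 6 and at 7.17, 6.002, 6.69, 8.02 and 7.86 on HMB+LPS 2 to 6. Its gap was smaller with LPS, since LPS 2 was within 1 unit of LPS 3 and 6.

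The 4 genes of nucleotide supply all passed, with a median difference of 2.96. Rrm2, the S phase subunit of ribonucleotide reductase, was at 7.59, 8.47, 8.91, 10.53, 12.93 and 13.10 on Ctrl 1 to 6 and at 8.46, 8.83, 8.64, 10.05, 12.71 and 12.47 on HMB 1 to 6. LPS 2 to 6 gave 6.32, 12.76, 6.26, 6.29 and 12.44. HMB+LPS 2 to 6 gave 6.29, 6.37, 5.96, 11.35 and 11.19. The 6 set A arrays with LPS lay under all other arrays and under the median negative control probe set of their own array, so they have no order among themselves. Tk1, thymidine kinase, varied least, at 5.61, 5.004, 5.91, 6.44, 7.81 and 7.65 on Ctrl 1 to 6, 5.29, 5.04, 5.30, 5.64, 6.88 and 6.90 on HMB 1 to 6, 5.30, 7.37, 5.33, 4.97 and 7.23 on LPS 2 to 6 and 3.99, 5.24, 5.59, 6.60 and 5.82 on HMB+LPS 2 to 6. HMB+LPS 6 was no higher than Ctrl 3, so the set B arrays of that group overlapped the set A arrays of Ctrl. Rrm1, the other reductase subunit, was 2.55 higher in numbers 5 and 6 (adjusted p = 0.000241). Tyms, which makes thymidylate, was 3.37 higher (adjusted p = 0.00215), with HMB 1 the lowest array at 5.92. On set A arrays with LPS, Tyms was at 8.35, 9.51, 8.71, 8.57, 9.48 and 9.74, and these overlapped Ctrl 4 and HMB 4.

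All 5 genes of S phase entry and its regulators passed, with a median difference of 3.16. Uhrf1, which reads hemimethylated DNA behind the fork for the maintenance methyltransferase, was at 8.12, 8.68, 9.02, 10.43, 13.20 and 13.20 on Ctrl 1 to 6 and at 7.25, 7.46, 9.01, 9.99, 12.78 and 12.64 on HMB 1 to 6. It was at 6.98, 12.86, 7.69, 6.66 and 12.26 on LPS 2 to 6 and at 6.73, 7.21, 7.91, 11.82 and 11.60 on HMB+LPS 2 to 6, so that set B arrays with LPS were above 11 and set A arrays with LPS under 8. Ccne1, a cyclin that activates Cdk2 at the G1 to S transition, was at 7.19, 7.45, 7.82, 8.76, 10.94 and 10.97 on Ctrl 1 to 6, 7.53, 7.64, 7.62, 7.98, 10.41 and 10.42 on HMB 1 to 6, 8.96, 10.91, 8.35, 7.72 and 10.68 on LPS 2 to 6 and 8.98, 7.86, 8.25, 10.14 and 9.40 on HMB+LPS 2 to 6. LPS 2 and HMB+LPS 2 were higher than any array of numbers 1 to 4 without LPS. Yet Ccne1 exceeded the array's 95th percentile of negative controls on 0 of the 6 set A arrays with LPS and 0 of the 8 without. Ccne2, its close relative, went further. It was at 6.56, 6.64, 6.36, 8.39, 10.62 and 10.37 on Ctrl 1 to 6 and 7.42, 6.59, 5.90, 8.47, 10.06 and 9.75 on HMB 1 to 6, yet at 10.90, 10.18, 7.71, 9.98 and 10.35 on LPS 2 to 6 and 10.89, 9.21, 7.81, 9.72 and 9.26 on HMB+LPS 2 to 6. LPS 2 and HMB+LPS 2, both set A, were the highest of all 22 arrays, and LPS 5 stood among the set B arrays. On LPS 2 and HMB+LPS 2 the level was still under the array's 95th percentile of negative controls (11.7 and 11.5). E2f1, the transcription factor, was 1.51 higher in numbers 5 and 6 (adjusted p = 0.0067), with HMB 1 lowest at 5.96. LPS 4 and HMB+LPS 4, at 9.76 and 9.55, were above Ctrl 4 and HMB 4 at 8.71 and 8.61. Mybl2, a transcription factor of the later cell cycle, was at 4.51 to 7.19 in numbers 1 to 4 without LPS and at 10.000 to 10.50 in numbers 5 and 6 (adjusted p = 0.00017), and the set A arrays with LPS were at 5.86, 6.12, 6.11, 5.66, 5.16 and 5.29, within the range of numbers 1 to 4.

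**Figure D3:**
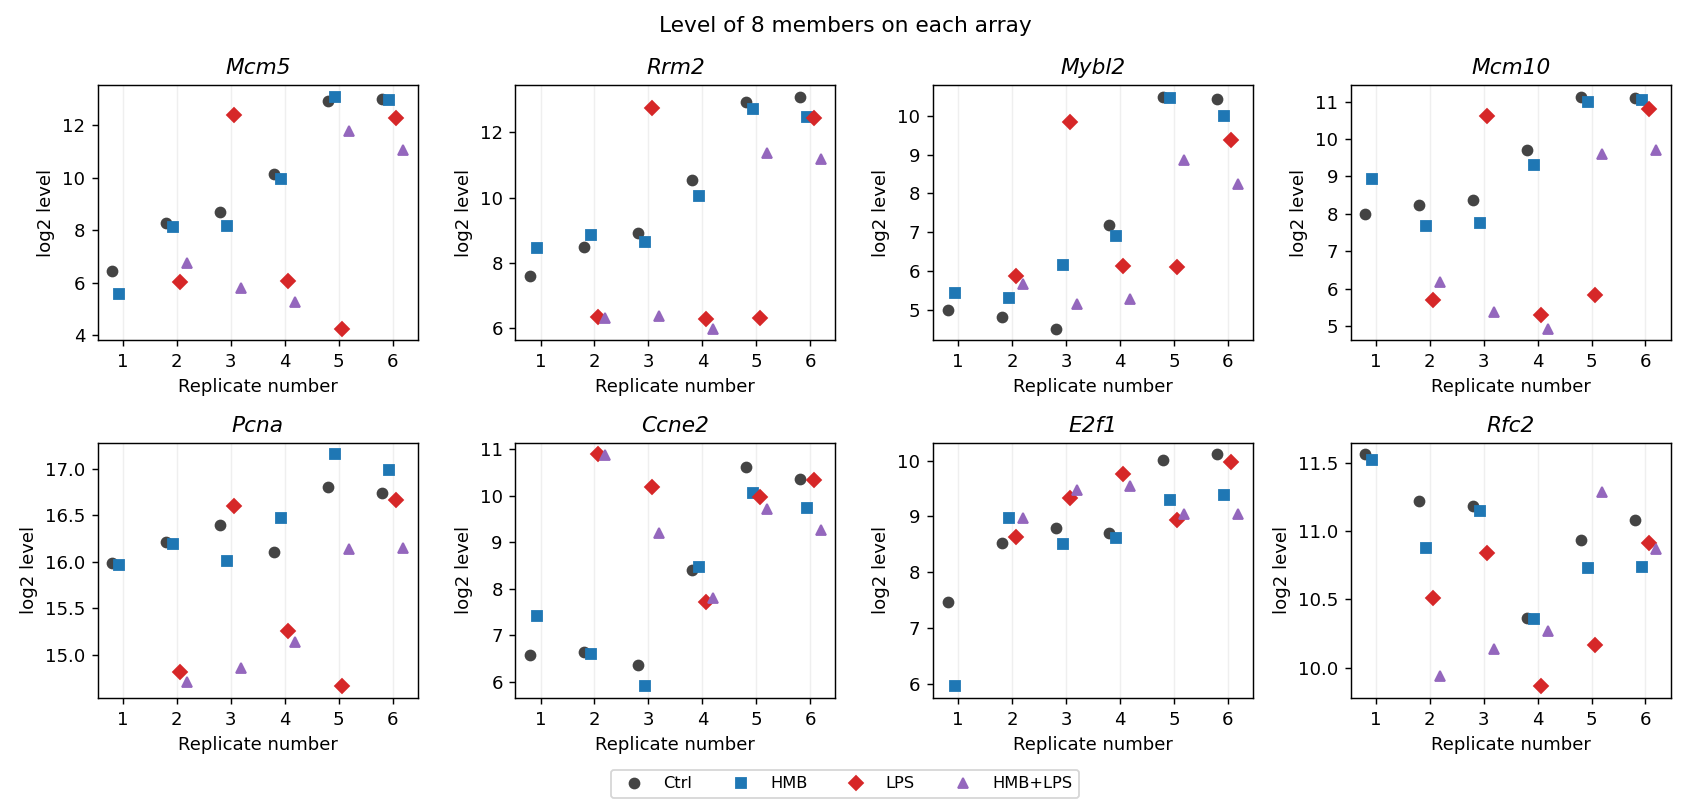
Log2 level of 8 members on each of 22 arrays, by replicate number, with a marker for each group. Mcm5, Rrm2, Mybl2 and Mcm10 are highest on numbers 5 and 6 and on LPS 3 and lowest or low on LPS 5, while Ccne2 is high on LPS 2 and HMB+LPS 2, and Rfc2 is highest on number 1.

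Other genes of the cell cycle were read from lists beside the members, in the F test that 16.9% of all probe sets passed. Of 33 other origin and fork genes, 19 differed between numbers, 18 higher in numbers 5 and 6 and 1 lower. Cdc7, the kinase that fires origins, was 3.23 higher (adjusted p = 6.51e-05), the fork protein Timeless 2.62 (adjusted p = 0.000318), and Pold4, a small subunit of polymerase δ, was at −1.83 (adjusted p = 0.000865). Among 22 other S phase and nucleotide genes, 17 differed, all higher, such as the histone chaperone Asf1b at 3.32 (adjusted p = 6.51e-05). Mitosis and G2/M genes followed in 31 of 33, all higher, with cyclin A2 (Ccna2) at 3.59 and Mki67, a marker of dividing cells, at 2.16 (adjusted p = 6.51e-05 and 0.000305). Of 20 E2F and G1/S regulators, 12 differed, 11 higher and 1 lower, with Myc, a growth factor-induced transcription factor, at 3.48 and the repressor E2f8 at 4.29 (adjusted p = 0.000179 and 0.000223). Among 7 cyclin-dependent kinase inhibitors, 4 differed. Cdkn1b, which holds cells out of S phase, was at −1.37 (adjusted p = 0.00715), Cdkn1c at −0.22 and Cdkn2b at −0.07 (adjusted p = 0.0232 and 0.0427), and Cdkn2c at 0.92 (adjusted p = 0.0349).

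Some markers of other cells and signs of array quality moved with the replicate number as well. Those called were 57.1% of fibroblast, 28.6% of neutrophil, 22.2% of macrophage and 11.1% of blood progenitor markers. Of all probe sets, 16.9% passed this F test. Of 7 fibroblast and stromal markers, 4 were lower in numbers 5 and 6 (Col1a1, Col1a2, Col3a1 and Pdgfrb), and the summed log2 level of the 7 was 34.7 to 37.9 there against 44.5 to 52.4 in numbers 1 to 4. Of 9 blood progenitor markers, 1 passed: Cd34, at 4.41 (adjusted p = 0.000287). The 9 summed to 40.7 to 44.1 in numbers 5 and 6 and to 34.2 to 37.8 in numbers 1 to 4, and the defining marker Kit stayed between 2.88 and 4.33, where the array medians were 5.82 to 5.98. Of 7 neutrophil markers, Mmp8 and S100a8 were higher (summed 31.1 to 31.9 against 25.7 to 28.4), and of 9 macrophage markers Cd14 and Fcgr1 differed, with lower means (summed 141.0 to 141.7 against 137.3 to 147.1). Lymphocyte markers (6), erythroid markers (3) and dendritic cell markers (6) had 0 called, as had 6 genes used in all cells, which were 0.28 to 0.63 higher in numbers 5 and 6. The 95th percentile of the negative control probe sets was 9.84 to 11.81 on arrays of numbers 1 to 4 and 9.79 to 10.36 on those of numbers 5 and 6. Of the 40 members, 27 to 38 per array were not above it in the former and 9 to 17 in the latter. Orc1, Cdc6, Pola1, Pold1, Pole, Rfc3, Lig1 and Tk1 exceeded it on 0 of 22 arrays, and Pcna on all 22. The part of these measures in the difference between numbers was not tested. Leaving out a replicate number left 33 to 37 members past the threshold, where 8.16% to 17.8% of all probe sets passed. When the number was tested over all 22 arrays, where LPS 3 and LPS 5 did not lie with their number, 9 members passed. The count over all probe sets for that test is given at the end. Rfc3 was lost without number 1, 4, 5 or 6.

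Whether LPS changes replication genes in M0 macrophages was asked over all arrays of the 4 groups. In LPS minus Ctrl, 0 of 40 members passed limma at an adjusted p of 0.05, where 1.86% of all probe sets did (1.08% higher and 0.788% lower), and 1 member, Rfc2, had an unadjusted p under 0.05 (14.3% of all). The median member was at −0.50 against 0.000960 for all probe sets, and 32 of 40 were below 0. The smallest p was that of Rfc2, at −0.60 ± 0.28 (SE, adjusted p = 0.325). Pcna followed at −0.77 ± 0.38 (SE, adjusted p = 0.358), then Ccne2 at 1.67 ± 0.87 (SE, adjusted p = 0.396). Mcm5, the member with the widest range, had the widest error, at −1.72 ± 1.71 (SE, adjusted p = 0.726). Its LPS levels (mean ± SD 8.20 ± 3.85, n = 5) and Ctrl levels (9.92 ± 2.64, n = 6) each spanned both sets. In HMB+LPS minus HMB, 0 of 40 passed (3.54% of all probe sets, 1.99% higher and 1.54% lower), Pcna alone had an unadjusted p under 0.05 (15.5% of all), and the median was −0.55, with 34 below 0. Pcna was at −1.07 ± 0.38 (SE, adjusted p = 0.13), and with the replicate number as a block it passed, at −1.16 ± 0.33 (SE, adjusted p = 0.0481), lower in 5 of 5 numbers. That block was fitted over all 22 arrays, among them LPS 3 and LPS 5, which did not lie with their number. Pcna was the only member called there. The count over all probe sets is not given here, so this call is not read as a result about the members. Mcm10 was at −2.13 ± 1.12 (SE, adjusted p = 0.379) and Rfc3 at −0.70 ± 0.44 (SE, adjusted p = 0.503). In the other lists, LPS minus Ctrl called 0 of 33 origin and fork genes, 0 of 22 S phase genes, 0 of 20 E2F and G1/S regulators and 0 of 33 mitosis genes, whose median was −1.97. HMB+LPS minus HMB called 1 of 33 origin and fork genes, Gmnn, which encodes the Cdt1 inhibitor geminin, at −1.38 ± 0.37 (SE, adjusted p = 0.0382), and 1 of 20 E2F and G1/S regulators, Skp2, which marks Cdkn1b for destruction, at −1.37 ± 0.37 (SE, adjusted p = 0.0382). It called 0 of 22 S phase genes and 0 of 33 mitosis genes.

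Taken by replicate number, LPS minus Ctrl had opposite signs in numbers 3 and 5. For number 3 the median of LPS minus Ctrl was 1.95, with 39 of 40 members higher, and Mybl2 at 5.33. For number 5 it was −3.05, with all 40 lower and Mcm5 at −8.69. Numbers 2, 4 and 6 gave −0.39, −1.18 and −0.39, with 26, 37 and 36 members lower. LPS 3 and LPS 5 lay in another set than the Ctrl arrays of their number, and LPS 2, 4 and 6 in the same one. The differences by number hold for the labels as given, and whether the labels of LPS 3 and LPS 5 were exchanged was not tested. HMB+LPS minus HMB, in which each number stayed within 1 set, gave medians of −0.64, −0.50, −1.16, −0.77 and −0.94 for numbers 2 to 6, with 24, 30, 37, 38 and 39 members lower. The share of all probe sets that were lower was 48.7% to 52.4% in each of these 10 differences.

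**Figure D4:**
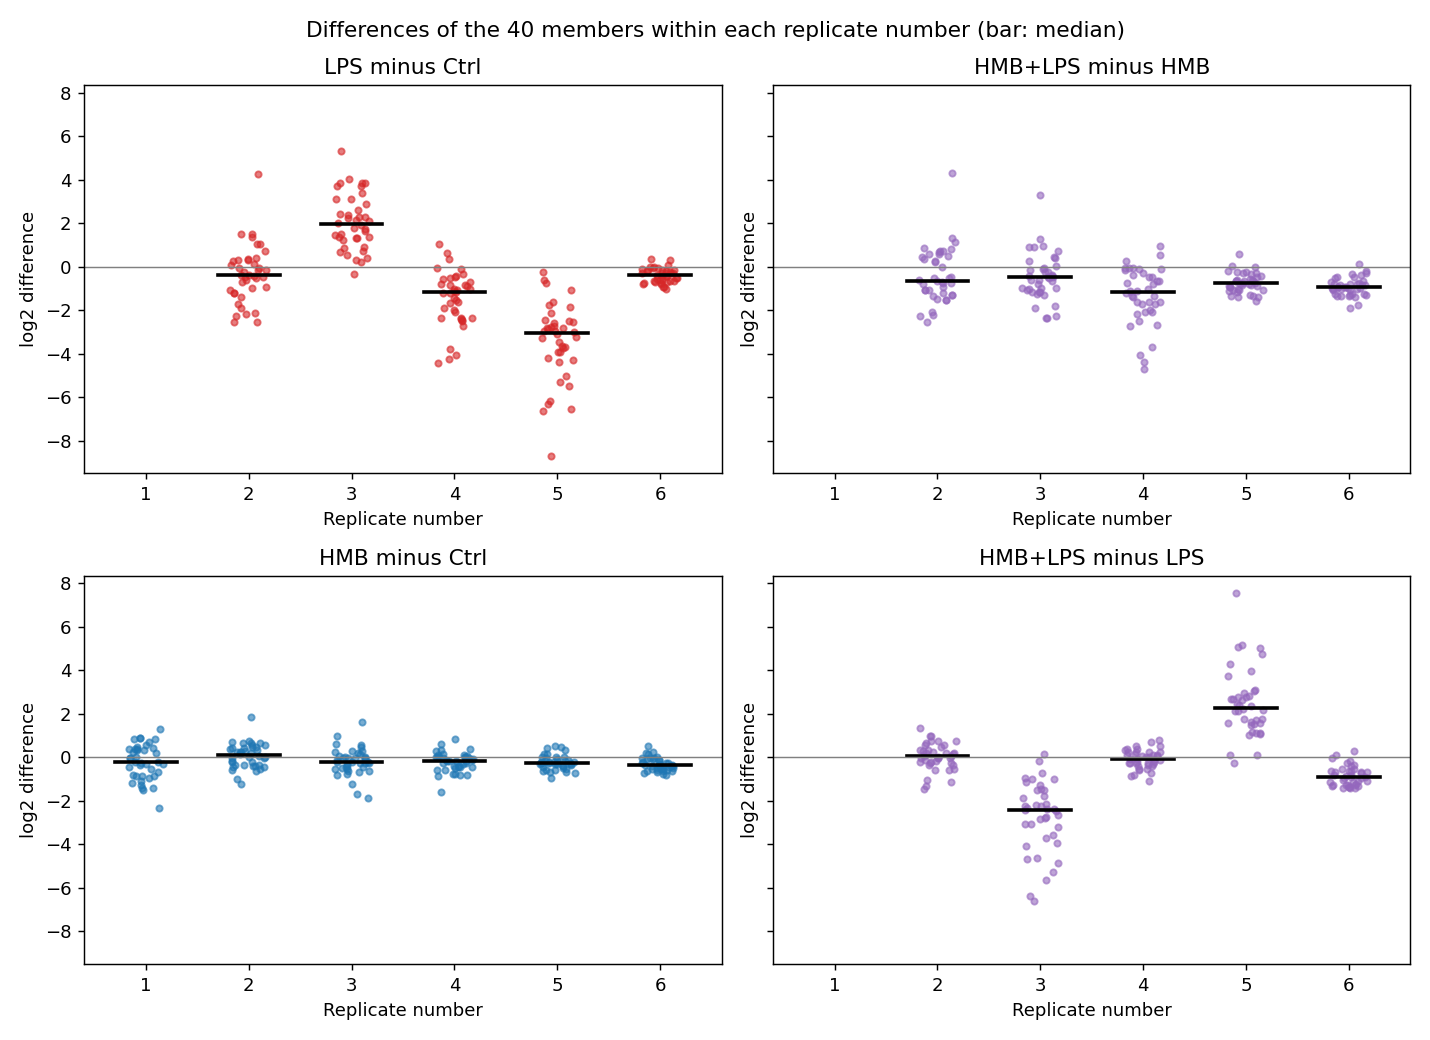
Differences of the 40 members between arrays of the same replicate number, in log2 units, 1 point per member and a bar at the median, for 4 pairs of groups. LPS minus Ctrl has medians of 1.95 for number 3 and −3.05 for number 5, HMB+LPS minus LPS has −2.40 and 2.28, and HMB minus Ctrl stays between −0.35 and 0.11.

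Compared within sets, in a limma fit of 8 means, arrays with LPS had lower levels of some members. The sets were cut from these data and go with the strength of the LPS response. P-values within and between sets therefore take the split as given and do not account for how it was made. Array positions in set A ran from −0.19 to 0.37 for Ctrl, with Ctrl 4 highest, and from −0.23 to 0.12 for LPS. With 3 LPS and 4 Ctrl arrays in set A, 11 of 40 members fell and 1 rose, where 9.04% of all probe sets fell and 6.12% rose, and the median member was at −0.90. Those that fell were Mcm10 at −2.97 ± 0.42 (SE, adjusted p = 4e-05), Mcm5 at −2.95 ± 0.81 (SE, adjusted p = 0.0175), Rrm2 at −2.58 ± 0.47 (SE, adjusted p = 0.000597), Mcm6 at −1.99 ± 0.62 (SE, adjusted p = 0.0352), Uhrf1 at −1.96 ± 0.57 (SE, adjusted p = 0.0236) and Cdc45 at −1.64 ± 0.45 (SE, adjusted p = 0.0179). Falls of less than 1.5 units were those of Rfc4, Rrm1, Pcna, Pole2 and Rfc2, and Pcna had the smallest error, at −1.27 ± 0.21 (SE, adjusted p = 0.000206). Ccne2 rose by 2.54 ± 0.74 (SE, adjusted p = 0.0239). Beside them E2f1, Gins3, Tyms, Mybl2 and Ccne1 had values of 0.74, 0.73, 0.70, 0.65 and 0.53, which did not pass. Of the mitosis genes, 29 of 33 fell in the same fit, with a median of −3.09. The count of members rested on single arrays: it was 4 without LPS 5, 7 without Ctrl 3 or without Ctrl 4, and 15 without HMB 4. Over all 22206 probe sets, the fits without 1 array called 2510 to 3894. The 4 of 40 members without LPS 5 are therefore no excess over all probe sets. The 6 arrays of control separation under 4 include LPS 2 and LPS 5. Without them LPS 4 is the only LPS array of set A, so no count is given. The 95th percentile of negative controls was 10.7 to 11.7 on the 3 LPS arrays of set A, where 1 to 5 members exceeded it, and 10.2 to 11.6 on the 4 Ctrl arrays, where 3 to 13 did. Summed neutrophil markers, which include genes that LPS induces in macrophages, were at 43.1 to 45.6 on set A arrays with LPS against 25.7 to 28.4 without, with Mmp8, S100a8 and Ltf called higher. Of 7 fibroblast markers, LPS minus Ctrl called 3 lower (Col1a1, Col1a2 and Col3a1) and 2 higher (Dcn and Lum), and their sum was 46.8 to 52.8 with LPS against 44.5 to 52.4. Of 9 macrophage markers, Csf1r and Mertk were called lower and Itgam higher, of 9 blood progenitor markers Cd34 was lower, and of 6 dendritic cell markers Itgax was lower. Mcm10, Mcm5 and Rrm2 were above the median of the negative controls on 0 of the 6 set A arrays with LPS, and Pcna was above their 95th percentile on all 6, so background limits the sizes of those 3 falls. Cdc45 and Uhrf1 were above that median on 1 and 2 of the 6, so it limits their falls too. Ccne2 was above the 95th percentile on 0 of these 6 and on 0 of the 8 set A arrays without LPS, so its rise also lies near background. The part of these measures was not tested.

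In set A, HMB+LPS minus HMB (3 and 4 arrays) called 4 of the 40 members, all lower. This share is near that of all probe sets, of which 8.11% fell and 5.94% rose. The 4 were Mcm10 at −2.92 ± 0.42 (SE, adjusted p = 4.87e-05), Rrm2 at −2.79 ± 0.47 (SE, adjusted p = 0.000308), Gins1 at −1.74 ± 0.56 (SE, adjusted p = 0.0446) and Pcna at −1.26 ± 0.21 (SE, adjusted p = 0.000225). In fits without 1 array the count was 3 to 9, the highest without HMB 1. Over all 22206 probe sets these fits called 2327 to 3472, so the lowest count is no excess over all probe sets. Without the 6 arrays of low control separation HMB+LPS 4 is the only HMB+LPS array of set A, so no count is given. Gins1, like Mcm10 and Rrm2, was under the median negative control on all 6 set A arrays with LPS. Of the markers called in LPS minus Ctrl within set A, those other than Csf1r and Ltf were called in the same direction here, Gapdh was 0.72 higher, and the part of these measures was not tested. In set B, where each group had 2 arrays, 0 members passed in either comparison (0.0045% and 0.239% of all probe sets fell, and 0.0901% and 0.838% rose), and Rpa2 at −1.40 ± 0.36 (SE, adjusted p = 0.0808) and Pcna at −0.93 ± 0.27 (SE, adjusted p = 0.149) had the smallest p in HMB+LPS minus HMB. The difference of the LPS effect between sets passed for 1 of the 40 members, Mcm10, at 2.57 ± 0.69 (SE, adjusted p = 0.046). This share is near that of all probe sets, of which 1.86% had a higher value in set B. Overlap of arrays was read as a description. In set A, the 6 arrays with LPS lay under the 8 without in 3 of the 40 members, Mcm10, Pcna and Rrm2, a share near that of all probe sets (5.84%). They lay above them in 0 (4.59%). LPS lay under Ctrl there in 10 members (11.1%) and above in 0 (8.94%), and HMB+LPS under HMB in 6 (10.9%) and above in 1, E2f1 (9.36%). In set B, the 4 arrays with LPS lay under the 4 without in 11 members (4.65%), among them Mcm5, Mcm10, Prim1, Pcna, Rpa2 and Mybl2, and above in 0 (4.26%). The 2 LPS arrays lay under both Ctrl arrays of set B in 30 of 40 members (21.6% of all probe sets) and above in 1, Gins3 (18.4%). Both HMB+LPS arrays lay under both HMB arrays in 36 (26.9%) and above in 1, Rfc2 (23.1%).

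**Figure D5:**
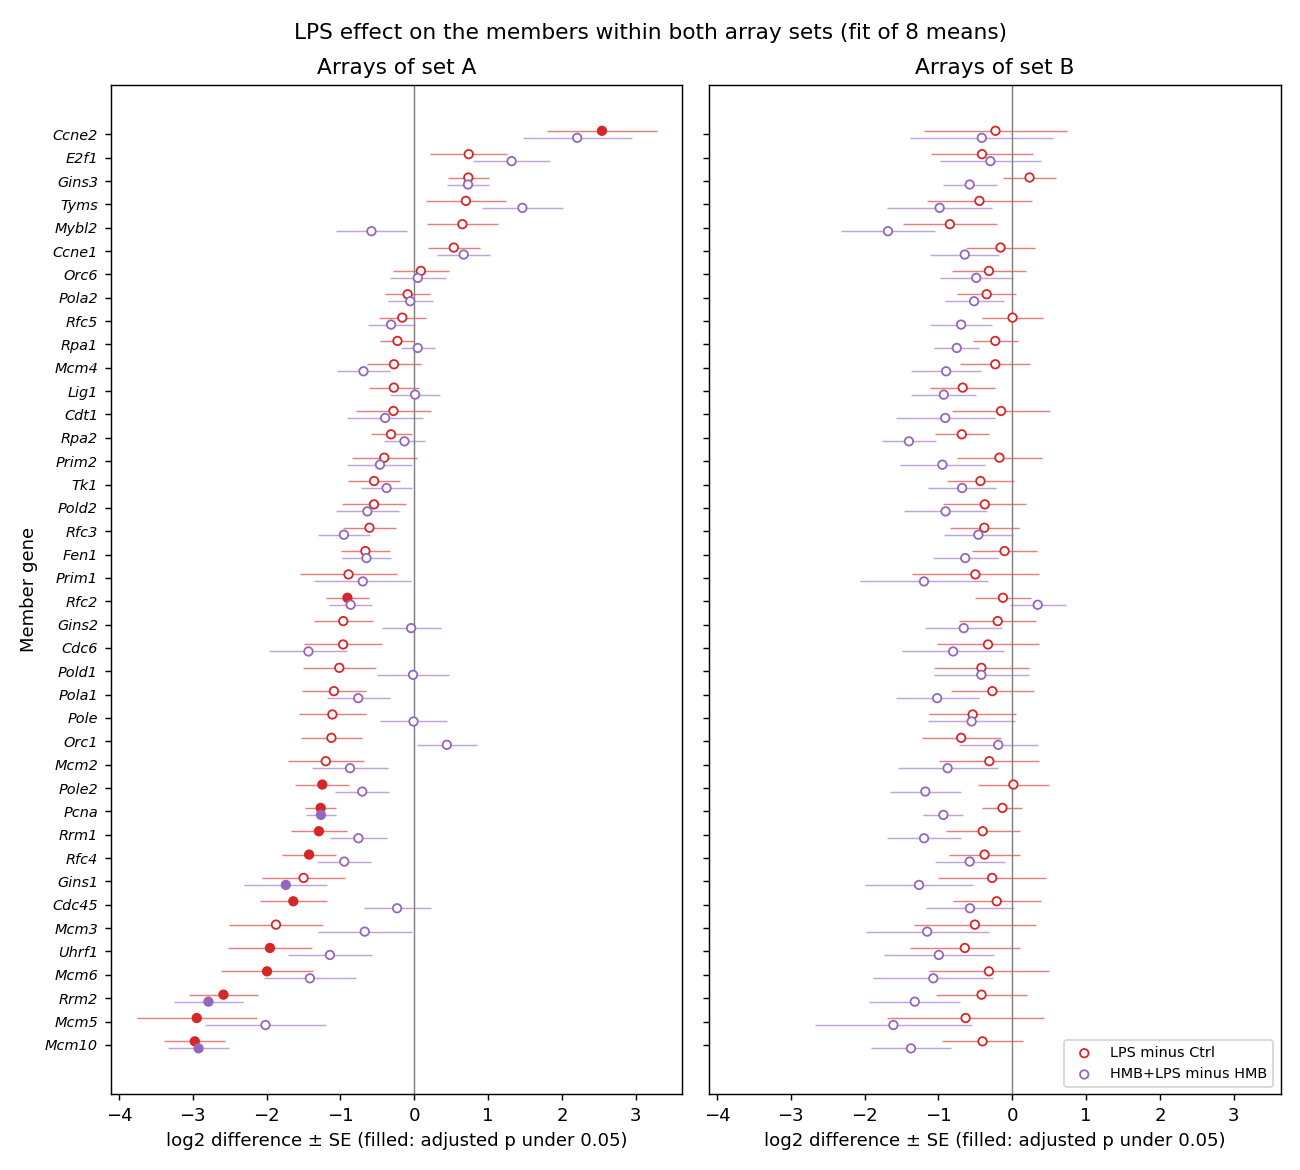
LPS effect on each member in log2 units ± SE, in set A (left; 3 LPS, 4 Ctrl, 3 HMB+LPS and 4 HMB arrays) and set B (right; 2 arrays per group), with filled points for an adjusted p under 0.05. In set A, 12 members of LPS minus Ctrl and 4 of HMB+LPS minus HMB are filled, of which Ccne2 alone lies to the right of 0, and in set B no point is filled.

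HMB had no called effect on replication genes, in M0 macrophages or beside LPS. HMB minus Ctrl called 0 of 40 members by limma (0% of all probe sets), with 0 members under an unadjusted p of 0.05 where 1.85% of all probe sets were. The median was −0.16 and 31 of 40 were below 0. Orc1 had the smallest p, at −0.72 ± 0.68 (SE, adjusted p = 1), with a 95% interval of −2.12 to 0.68, and Pold1 and Tk1 were at −0.47 and −0.56. Single arrays moved these values: without HMB 1, Orc1 was at −0.45 and Pold1 at −0.15, without HMB 5 Orc1 was at −1.12, and without Ctrl 5 Tk1 was at −0.28. Mcm5 was at −0.27 ± 1.63 (SE, adjusted p = 1), with an interval of −3.66 to 3.12, where numbers 5 and 6 and numbers 1 to 4 both enter the spread. With the replicate number as a block in the 12 Ctrl and HMB arrays, its interval was −0.67 to 0.13, and 0 of 40 members passed (0 of all probe sets). In that fit 7 members had an unadjusted p under 0.05 (5.36% of all), among them Tk1 at −0.56 ± 0.18 (SE, adjusted p = 0.907) and Uhrf1 at −0.59 ± 0.19 (SE, adjusted p = 0.907). Within a number, the HMB array was close to its Ctrl array, and the medians were −0.20, 0.11, −0.20, −0.17, −0.25 and −0.35 for numbers 1 to 6. For numbers 5 and 6, 31 and 35 of 40 members were lower with HMB, and in 26 members both HMB arrays of set B lay under both Ctrl arrays (26.3% of all probe sets), with 3 above (22%). In set A the groups overlapped in all 40, where 0.883% of all probe sets were lower and 0.761% higher without overlap. The fit of 8 means called 0 members in either set.

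HMB+LPS minus LPS called 0 of 40 (0% of all probe sets, 3.09% by unadjusted p, where 0 members lay), with a median of −0.22. Rfc3 was at −0.51 ± 0.46 (SE, adjusted p = 1), Tk1 at −0.59 and Gins1 at −0.83. Single arrays moved these too, Rfc3 from −0.85 without LPS 5 to −0.26 without LPS 3, Tk1 from −0.88 without HMB+LPS 5 to −0.22 without HMB+LPS 2, and Gins1 from −1.53 without LPS 4 to −0.16 without HMB+LPS 4. By number the medians were 0.05, −2.40, −0.07, 2.28 and −0.92 for numbers 2 to 6, and the 2 large ones are those where LPS 3 and LPS 5 lay in another set than their HMB+LPS array. In set B, HMB+LPS 5 and 6 lay under LPS 3 and 6 in 34 of 40 members (28.1% of all) and above them in 0 (23.8%), with a median of −0.85, and the fit of 8 means called 0 (0.126% of all probe sets fell). In set A, where 3 arrays met 3, HMB+LPS lay above LPS in 2, Orc1 and Cdc45 (3.3% of all), and below in 1, Mybl2 (3.76%), with a median of 0.15 and 0 called. Pole2, a subunit of polymerase ε, had the smallest p in set B, at −1.55 ± 0.48 (SE, adjusted p = 0.222). Nos2 was higher on HMB+LPS 5 and 6 (9.85 and 9.78) than on LPS 3 and 6 (5.64 and 5.74), and the part of this in the difference was not tested. The difference between both HMB effects called 0 members (0% of all), with 0 under an unadjusted p of 0.05 (2.09% of all) and a median of −0.12. Orc1 was at 1.18 ± 1.00 (SE, adjusted p = 1), Pole at 0.74 and Pold1 at 0.58.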

How the data were processed

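The labels give 22 samples, 1 array each. The authors deposited log2 values per probe set in 1 table (0.97 to 19.44); how background was corrected and values normalized, and with which software, is not given in the sources used here. Of 28846 probe sets, 6640 were controls and 22206 were tested as deposited. The platform annotation gave 19572 of them 1 symbol and left 2634 unnamed. The number of arrays limits the precision. GEO's design text gives 5 samples per group, and the labels, which were followed, give 6, 6, 5 and 5.

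Group comparisons used limma 3.58.1 in R 4.3.3, with 4 group means over all 22 arrays, two-sided. P-values were adjusted by Benjamini-Hochberg for all 22206 tested, at 0.05. The replicate number was tested by limma's F test in the 12 arrays without LPS, with HMB as a term and 5 residual degrees of freedom. That test treats Ctrl and HMB arrays of a number as samples of it. Same-numbered Ctrl and HMB arrays deviated together from their group means in all 6 pairs (r = 0.627, 0.183, 0.244, 0.307, 0.608 and 0.623). For numbers 2 and 5, the HMB array of another number had a higher r with the Ctrl array. The difference of numbers 5 and 6 from the rest also enters these r. The numbers of Ctrl and HMB arrays were taken to pair them, which comes from the data and not from the labels. Arrays with LPS were not paired this way. The code was tested on simulated data. Python 3.11.15 searched the promoters.

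Values on every array were given for the member with the widest and the one with the narrowest range in each of 9 roles, and for others where an array stood out, chosen after their values were seen. Up to 4 genes per other list were named by the smallest p, and Mki67. The members, the lists (5 of other cell cycle genes, 115 of 123 genes measured, and 7 of cell markers) and the tests were chosen with earlier results of these data known. Alternatives covered scaling, a filter on dim probe sets, array weights, array quality, the samples fitted, a block for the replicate number or for the set, the plain t-test and left-out arrays.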

Additional observations from a re-analysis of the deposited data

How the results depend on the processing

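Counts of called members in the comparisons between treatments did not depend on scaling or on any single array: each stayed at 0 in all 22 fits that left out 1 array (0 to 0). Over all probe sets those fits called 141 to 775 for LPS minus Ctrl and 444 to 988 for HMB+LPS minus HMB. LPS minus Ctrl called 4 members with the set as a block (1482 of all 22206 probe sets), 12 within set A (3367 of all) and 1 by the methods' t-test without adjustment. HMB+LPS minus HMB called 1 member (Pcna) with array weights (1683 of all probe sets) and 1 with the methods' t-test without adjustment. It called 4 with the set as a block (1982 of all) and 4 within set A (3120 of all). With the replicate block it called 1, Pcna at −1.16 (adjusted p = 0.0481), and the count over all probe sets is not given here. The block changed no other call. Ctrl with LPS (r from −0.381 to 0.462) shared no clear pairing. HMB with HMB+LPS had positive r in every number (0.0761 to 0.421). The HMB+LPS array of the same number had the highest r for numbers 3, 4 and 5, and not for 2 and 6. The filter on dim probe sets left 24 members in the test of replicate numbers, all called, but a member can pass that filter through set B arrays alone, so this count supports nothing. The test called 9 of 40 over all 22 arrays with group and number as terms (1436 of all probe sets), and 33 to 37 without 1 number (8.16% to 17.8% of all). Within set A, fits without 1 array called 4 to 15 members for LPS minus Ctrl and 3 to 9 for HMB+LPS minus HMB, and 11 for the latter without the arrays of control separation under 4; leaving out arrays within set A, and the block in Ctrl and HMB arrays alone (0 members), were added after seeing the data. Values that changed sign, none of them past the threshold, were Ccne2 in LPS minus Ctrl (−0.23 within set B, −0.33 on numbers 5 and 6), Rfc3, Tk1 and Gins1 in HMB+LPS minus LPS (0.61, 0.11 and 0.43 on numbers 5 and 6), and in the difference between HMB effects Pold1 (−0.14 without arrays of low separation, −0.000885 within set B, −0.0762 on numbers 2 to 4) and Pole (−0.0138 within set B). The cause was not tested. Over all probe sets, LPS minus Ctrl called 414, against 230 with array weights, 38 without arrays of low separation, 117 with its groups alone, 9 by the adjusted t-test, 670 with the replicate block, 1482 with the set block, 3367 in set A, 21 in set B, 641 on numbers 2 to 4 and 3 on numbers 5 and 6. HMB+LPS minus HMB called 785, against 1683 with array weights, 357 without arrays of low separation, 423 by the adjusted t-test, 1982 with the set block, 3120 in set A, 239 in set B, 1611 on numbers 2 to 4 and 32 on numbers 5 and 6. The test of replicate numbers called 3742, against 1436 over all 22 arrays, 1812 without number 1, 2388 without number 5 and 2285 without number 6. No member had more than 1 probe set, so the choice of probe set could not be varied.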
